A study of Homo sapiens with 6 samples.

Results

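The genes described are the small nucleolar RNA host genes (SNHGs) of the human genome together with GAS5, growth arrest specific 5. They were chosen by name alone, as every gene called SNHG followed by a number, or GAS5, in the deposited table. The rule gave 29 genes of 62700. They were measured by sequencing of poly(A)-selected RNA in SAS cells, an established human line of tongue squamous cell carcinoma, labelled wild type. The control group was 3 libraries of cells given a control siRNA (siC), and the knockdown group was 3 libraries of cells given an siRNA against IGF2BP1, an RNA-binding protein known to stabilise many of the transcripts it binds. The study asks whether IGF2BP1 works against the repression of YAP1 by Hippo signalling, and the 2 groups give its only comparison. No label says that replicates were separate cultures, and p-values cover only the spread between libraries. The labels also do not give the siRNA sequence or the time of harvest. In bulk RNA, fewer cells with a transcript and less of it in each cell cannot be told apart.

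A small nucleolar RNA (snoRNA) is a short RNA of the nucleolus that guides the chemical modification or the processing of ribosomal and spliceosomal RNA. Most human snoRNAs have no promoter of their own. They are cut out of the introns of a longer transcript, the host, when it is spliced. The hosts are either protein-coding genes, many of them for ribosomal proteins and translation factors, or noncoding genes such as the SNHGs. Spliced noncoding hosts reach the cytoplasm, and several, GAS5 and SNHG1 among them, are known targets of nonsense-mediated decay (NMD), the surveillance pathway that removes transcripts on which ribosomes stop early. Many hosts also start with a run of pyrimidines, the 5' terminal oligopyrimidine (TOP) tract, which ties their translation to growth signals. The level of a spliced host in poly(A) RNA is therefore a measure of the leftover transcript, and not of the snoRNAs made from it.

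Of the 29 genes, 24 had enough reads to be tested and 5 did not. Transcripts of 4 hosts were lower after knockdown (SNHG3, SNHG1, SNHG12 and SNHG8) and those of 2 were higher (SNHG11 and SNHG7), by edgeR's quasi-likelihood test at an adjusted p under 0.05. The other 18 were not called. Over all 14649 tested genes, 6.66% were called lower and 6.27% higher. The median log2 fold change, knockdown over control, was 0.03 among the 24 hosts and 0.03 over all tested genes. Of the 24 hosts, 14 had a positive and 10 a negative log2 fold change. All 3 knockdown libraries lay outside the range of the controls, on one side, for 9 of the 24 hosts (6 lower and 3 higher), where 30.7% of all tested genes did so. The 3 that did not pass the test were SNHG15 and SNHG26, lower, and SNHG10, higher. The calls therefore went in both directions, though neither rise held with every library left out in turn. The summed level of all 29 overlapped between the groups: 1899, 2062 and 1836 CPM (reads scaled to library size with TMM factors) for controls 1 to 3 and 1616, 1780 and 1891 CPM for knockdowns 1 to 3.

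**Figure D1:**
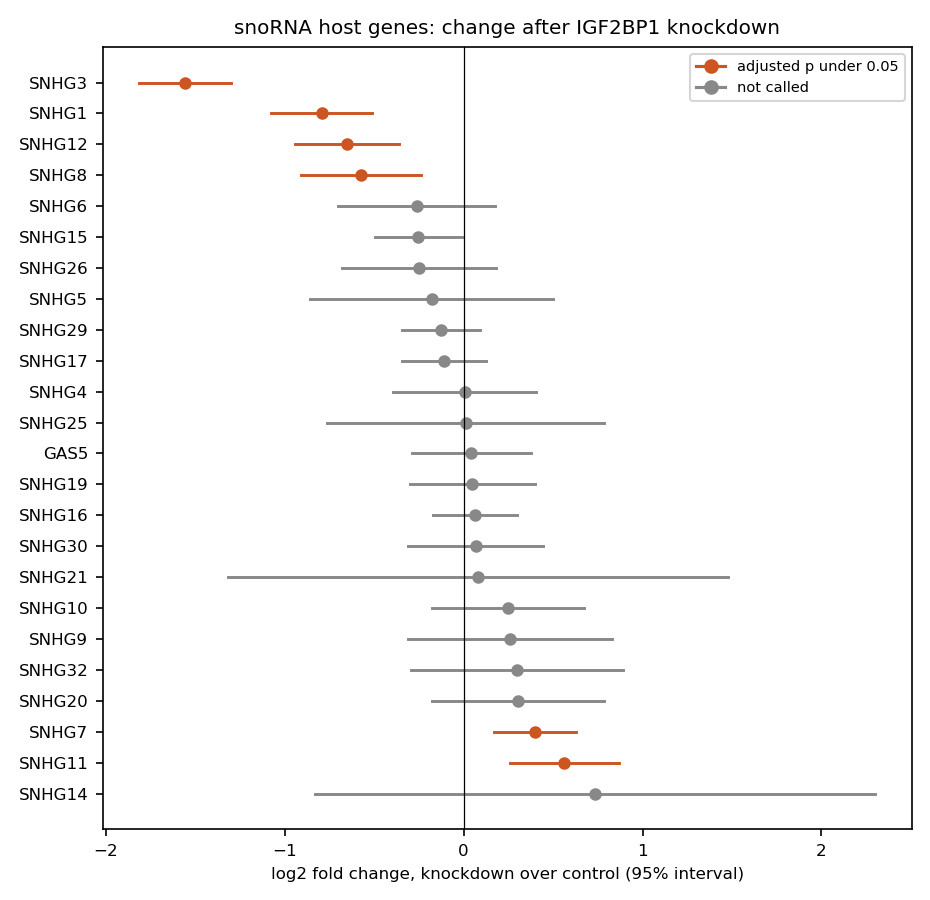
Log2 fold change, knockdown over control (x axis), of the 24 tested snoRNA host genes, with bars for the 95% interval of the fit and called genes in orange. SNHG3 stands at -1.55 with an interval from -1.81 to -1.30, and most other hosts have intervals that include 0.

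The libraries held 17918496 to 26675064 counted reads. With the TMM factors used for the levels, 3 reads, the least taken as a signal, were worth 0.115 to 0.165 CPM. IGF2BP1, the targeted gene, had 185, 223 and 292 reads across the controls, against 29, 25 and 21 across the knockdowns (log2 fold change -3.07, SE 0.30, edgeR adjusted p = 4.56e-06). As a check of the labelled cell type, all 6 epithelial markers were detected. PTPRC, MLANA and COL3A1, markers of leukocytes, melanocytes and fibroblasts, had 0 reads in every library. Other markers from the same lists had reads. In controls CD14 had 395 to 471 reads, PMEL 92 to 122 and COL1A1 114 to 188. The endothelial marker VWF had 99 to 120. The summed epithelial marker level was 17980 to 19410 CPM in controls and 7940 to 8438 CPM after knockdown, with 4 of the 6 lower, among them KRT5 (log2 fold change -2.91, adjusted p = 1.05e-10), CDH1 (-1.60, adjusted p = 7.11e-07) and KRT18 (-1.26, adjusted p = 1.09e-06). Among the markers of other cell types only PDGFRB was called, with a mean of 0.605 CPM among controls against 1.73 CPM among knockdowns (adjusted p = 0.0491). Summed levels were 6.29 to 8.50 CPM in controls and 5.72 to 9.18 CPM in knockdowns for 7 fibroblast markers, 6.29 to 7.41 and 6.17 to 13.5 CPM for 5 endothelial, 17.1 to 18.4 and 12.1 to 14.0 CPM for 5 leukocyte (nearly all CD14) and 4.03 to 4.68 and 3.54 to 4.95 CPM for 4 melanocyte markers. The part of these marker levels in the host gene results was not tested.

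The 6 hosts that changed are shown by the DNA around their starts, so that promoter elements of hosts that moved the same way can be compared. The runs below come from RefSeq on GRCh38.p14 and end 30 bases into the transcript, each 5' to 3' on the strand of the host. They are SNHG3 (chr1:28505713-28505942, plus strand), SNHG1 (chr11:62855856-62856101, minus), SNHG12 (chr1:28581844-28582103, minus), SNHG8 (chr4:118278532-118278791, plus), SNHG11 (chr20:38446424-38446683, plus) and SNHG7 (chr9:136728155-136728414, minus). The SNHG3 run stops at the last base before the start, and the SNHG1 run begins 216 bases before the start, because the bases left out belong to the neighbouring coding gene. For SNHG3 that gene is RCC1, on the same strand, so the run also lies just before the start of RCC1. RCC1, described further below, was not called (log2 fold change -0.19). The runs, and the matches tied to a start, use RefSeq starts, while the coordinates given further below are from GENCODE 29. The 2 sources give the same start for SNHG7 (136728184). For SNHG12 they give 28581873 and 28583132, so its whole run lies inside the GENCODE 29 gene. The starts of SNHG3, SNHG1, SNHG8 and SNHG11 also differ. Capitals mark CTTT within 20 bases of the start, TATAA from 45 to 15 bases before it, and GCGCATGC or its reverse complement GCATGCGC anywhere.
SNHG3: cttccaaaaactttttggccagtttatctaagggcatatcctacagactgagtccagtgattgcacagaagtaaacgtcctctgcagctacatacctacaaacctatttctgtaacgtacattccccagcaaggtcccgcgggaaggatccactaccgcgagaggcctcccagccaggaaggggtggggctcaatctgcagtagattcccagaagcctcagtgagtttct
SNHG1: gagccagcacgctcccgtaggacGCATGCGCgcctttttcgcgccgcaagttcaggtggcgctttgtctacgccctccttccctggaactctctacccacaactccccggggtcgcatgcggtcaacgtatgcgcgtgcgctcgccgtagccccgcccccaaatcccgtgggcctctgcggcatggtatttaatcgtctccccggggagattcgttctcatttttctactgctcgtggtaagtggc
SNHG12: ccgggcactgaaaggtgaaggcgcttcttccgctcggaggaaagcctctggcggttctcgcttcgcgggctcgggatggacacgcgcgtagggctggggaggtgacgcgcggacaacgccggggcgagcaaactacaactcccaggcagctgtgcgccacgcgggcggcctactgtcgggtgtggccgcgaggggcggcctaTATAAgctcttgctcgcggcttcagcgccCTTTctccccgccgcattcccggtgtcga
SNHG8: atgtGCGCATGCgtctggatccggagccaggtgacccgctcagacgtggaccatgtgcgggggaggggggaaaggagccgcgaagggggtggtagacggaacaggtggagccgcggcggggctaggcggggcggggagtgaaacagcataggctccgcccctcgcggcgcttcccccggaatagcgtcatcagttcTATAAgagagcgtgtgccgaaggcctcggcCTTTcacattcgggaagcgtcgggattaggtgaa
SNHG11: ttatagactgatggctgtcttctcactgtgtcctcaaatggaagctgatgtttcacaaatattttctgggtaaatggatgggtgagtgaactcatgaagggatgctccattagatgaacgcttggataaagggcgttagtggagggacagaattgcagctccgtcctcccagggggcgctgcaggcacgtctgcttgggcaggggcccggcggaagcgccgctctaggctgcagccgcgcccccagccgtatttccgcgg
SNHG7: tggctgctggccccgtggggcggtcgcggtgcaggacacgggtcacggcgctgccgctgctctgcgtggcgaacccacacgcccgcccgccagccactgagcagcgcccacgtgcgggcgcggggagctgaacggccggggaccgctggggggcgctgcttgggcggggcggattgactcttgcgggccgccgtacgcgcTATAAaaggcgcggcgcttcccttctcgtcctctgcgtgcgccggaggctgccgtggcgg

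The letters in capitals are pieces of known elements. CTTT near the start is a loose stand-in for a TOP tract, since a match does not show that the transcript begins with pyrimidines. TATAA is the core of the TATA box, and the 8-letter run is part of the palindrome bound by NRF1, a factor best known for genes of mitochondrial function. Promoter entries were found for 25 of the 29 hosts (none for SNHG6, SNHG9, SNHG15 and SNHG25). CTTT lay within 20 bases of the start on the coding strand in 10 of the 25, SNHG12 and SNHG8 among those shown, against 15.98% of all 35116 promoters. On the other strand, where it reads AAAG, it lay in 1 of 25 against 12.65% of all. Among the promoters of protein-coding snoRNA hosts, 29 of 58 entries had CTTT there. GAS5, itself a known TOP transcript, and SNHG1 had no such match, so 10 of 25 is not the share of hosts with a TOP tract. TATAA lay in 5 of the 25 hosts (SNHG12, SNHG8, SNHG7, SNHG5 and SNHG19) against 4.09% of all promoters, and the same letters on the other strand, TTATA, in 0 against 1.95%. The letters GCGCATGC or GCATGCGC occurred in the 300 bases of 4 hosts, SNHG3, SNHG1, SNHG8 and SNHG27, against 3.05% of all. In SNHG3 that match lies after the start, outside the run shown. CACGTG, the E-box bound by MYC, a palindrome that reads the same on both strands, occurred in 2 hosts, SNHG7 and SNHG30, against 7.26% of all. Among the 14886 promoter entries of tested genes, the coding-strand shares were 13.26% for CTTT and 2.94% for TATAA. There they were 4.66% for GCGCATGC or GCATGCGC and 9.32% for CACGTG. With these RefSeq starts, no element was common to all 4 hosts that fell, and none was in both hosts that rose. A match is a match of letters only, with no binding measured here.

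SNHG3 had the largest change of the 24 tested hosts. It hosts SNORA73A and SNORA73B, the U17 snoRNAs, which act in the cleavage of ribosomal RNA precursors. Its level was 100.6, 93.07 and 85.57 CPM in controls 1 to 3 and 29.75, 30.32 and 34.90 CPM in knockdowns 1 to 3. The groups were far apart, with every knockdown library at less than the lowest control and a narrow spread in each group. SNHG3 (ENSG00000242125; GENCODE 29 on GRCh38, chr1:28505980-28510892, plus strand) fell by 1.55 on the log2 scale (SE 0.12, edgeR adjusted p = 3.94e-07), to 34.0% of the control mean. The call held in each of the 13 alternative analyses, with log2 fold changes from -1.64 to -1.47.

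SNHG1 hosts C/D box snoRNAs, which guide methylation of ribosomal RNA. It had 80.45, 100.9 and 72.26 CPM in controls 1 to 3 and 50.09, 44.46 and 51.75 CPM in knockdowns 1 to 3. The controls varied more than the knockdowns, control 2 being the highest, and the groups did not overlap. SNHG1 (ENSG00000255717; chr11:62851988-62855914, minus strand) fell by 0.79 on the log2 scale (SE 0.13, adjusted p = 7.41e-04), to 57.7% of the control mean. SNHG12 (ENSG00000197989; chr1:28578538-28583132, minus strand) lies near SNHG3 on the other strand. It hosts H/ACA box snoRNAs, which guide pseudouridylation, and the C/D box snoRNA SNORD99. It had 53.90, 51.12 and 41.18 CPM in the controls and 33.48, 29.58 and 30.02 CPM in the knockdowns. All 3 knockdown values lay under all 3 control values, and SNHG12 fell by 0.65 on the log2 scale (SE 0.14, adjusted p = 0.00431). Both calls held in every one of the 13 alternatives.

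SNHG8 (ENSG00000269893; chr4:118278709-118279823, plus strand), the host of SNORA24, was the weakest of the 4 falls. It had 48.16, 55.13 and 45.51 CPM in controls 1 to 3 and 24.69, 37.67 and 37.51 CPM in knockdowns 1 to 3. Knockdown 1 was well below the other knockdowns, which were themselves below every control. SNHG8 fell by 0.57 on the log2 scale (SE 0.16, adjusted p = 0.0241). Without knockdown 1 the change was -0.40 (adjusted p = 0.0601), without control 2 it was -0.50 (adjusted p = 0.128), and without a scaling factor -0.49 (adjusted p = 0.0647), so 3 of the 13 alternatives ended the call.

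The 2 hosts that rose did so by less than SNHG3 fell. SNHG11 (ENSG00000174365; chr20:38446578-38450921, plus strand), the host of SNORA71E and SNORA60, had 18.75, 18.35 and 19.15 CPM in controls 1 to 3 and 27.05, 29.67 and 26.34 CPM in knockdowns 1 to 3. The controls were close together and every knockdown was higher. SNHG11 rose by 0.56 on the log2 scale (SE 0.14, adjusted p = 0.0152). SNHG17, its neighbour on the chromosome, which is read from the other strand, was at -0.11 in log2 (adjusted p = 0.599). SNHG7 (ENSG00000233016; chr9:136721366-136728184, minus strand), the host of SNORA17A and SNORA17B, had 138.8, 127.6 and 111.0 CPM in the controls and 164.2, 172.7 and 160.0 CPM in the knockdowns. Its groups did not overlap either, and SNHG7 rose by 0.40 on the log2 scale (SE 0.11, adjusted p = 0.0220). On the opposite strand lies DIPK1B, which covers 25.2% of the exonic sequence of SNHG7 and had a mean of 0.418 CPM among controls against 1.13 CPM among knockdowns.

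Both rises were near the threshold. Leaving out control 1 (adjusted p = 0.0619), control 2 (0.0720), control 3 (0.0501) or knockdown 2 (0.0622) ended the call of SNHG11. For SNHG7 the same held of control 2 (adjusted p = 0.0867), control 3 (0.136), knockdown 2 (0.0709) and knockdown 3 (0.0581). With control 2, control 3 or knockdown 2 left out, 0 hosts were called higher. The sign of both stayed positive in all 13 alternatives, with log2 fold changes from 0.48 to 0.65 for SNHG11 and from 0.30 to 0.48 for SNHG7.

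**Figure D2:**
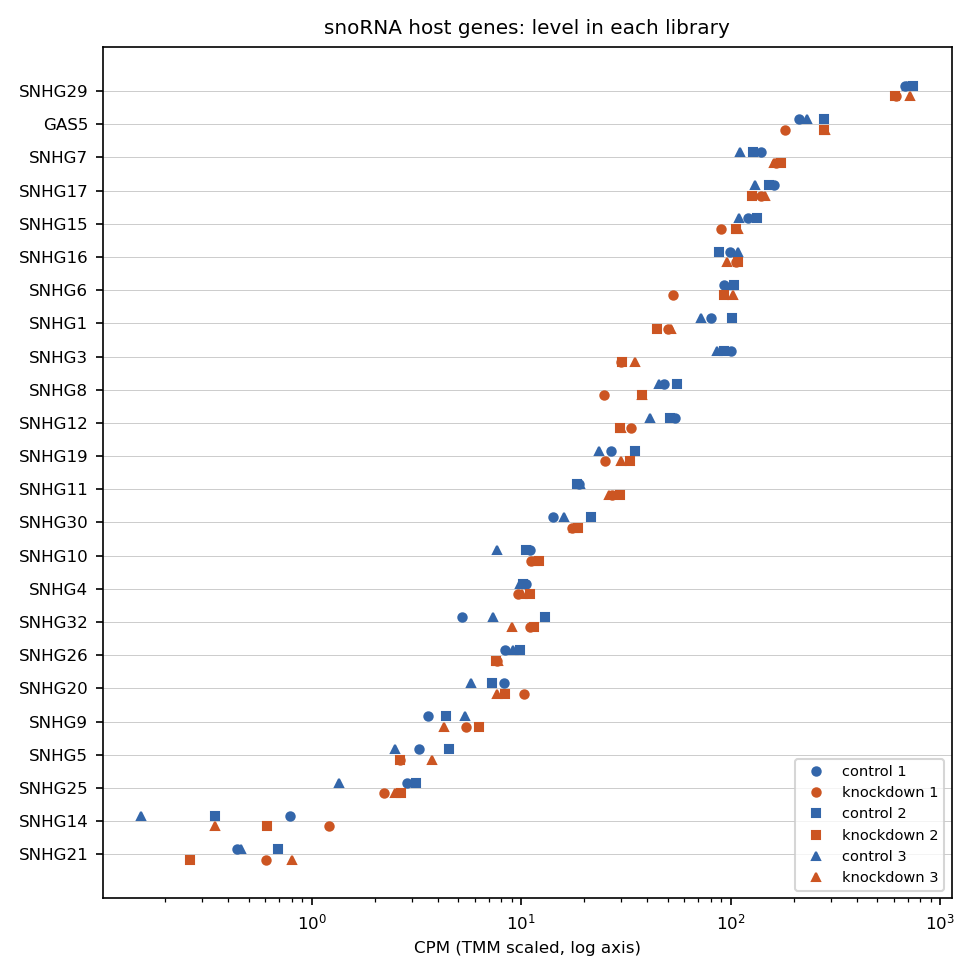
CPM of the 24 tested snoRNA host genes in each library (log x axis), ordered by mean level, with controls in blue and knockdowns in orange and the replicate number as the marker shape. SNHG3 shows the clearest gap between colours, while GAS5 and SNHG16 show the colours mixed.

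The most abundant hosts were among those not called. SNHG29, called LRRC75A-AS1 in GENCODE 29, had the highest CPM of all members, at 678.7, 740.6 and 692.6 CPM in controls and 612.5, 609.5 and 712.2 CPM after knockdown (log2 fold change -0.13, 95% interval -0.34 to 0.09). GAS5, the best studied member and a classical NMD and TOP transcript, had 211.7, 277.5 and 229.7 CPM in controls 1 to 3 and 181.2, 278.2 and 280.6 CPM in knockdowns 1 to 3. Knockdown 1 was below every control for GAS5, while knockdowns 2 and 3 were above every control, though barely above control 2. The log2 fold change of GAS5 was 0.04 (95% interval -0.29 to 0.37, adjusted p = 0.901). Without knockdown 1 it was 0.22 (adjusted p = 0.241).

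SNHG15, an unstable and stress-responsive host of SNORA9, was lower in every knockdown (120.1, 133.3 and 109.2 CPM against 90.06, 105.4 and 108.5 CPM), with control 3 and knockdown 3 nearly level. Its log2 fold change was -0.25 (adjusted p = 0.172). SNHG6 had 92.59, 104.0 and 101.3 CPM in controls and 52.84, 92.85 and 102.5 CPM after knockdown, a log2 fold change of -0.26 (adjusted p = 0.467). Only knockdown 1 was low for SNHG6. The rest of the 8 most abundant members that were not called had log2 fold changes of -0.11 (SNHG17), 0.06 (SNHG16), 0.05 (SNHG19) and 0.07 (SNHG30). The remaining 10 uncalled hosts lay between -0.25 (SNHG26) and 0.73 (SNHG14). That last value rests on 18, 8 and 4 reads in controls and 22, 14 and 9 after knockdown, and its 95% interval ran from -0.83 to 2.30.

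Of the 5 hosts under the read filter, SNHG18, SNHG27 and SNHG28 had 0 reads in all 6 libraries, which allows a level up to the floor given for 3 reads. SNHG31 had 0, 0 and 7 reads across the controls, against 0, 0 and 4 across the knockdowns. SNHG22 had 1, 1 and 0 reads in controls and 3, 1 and 10 after knockdown. These counts were too low to be tested.

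Levels were set side by side between hosts per kilobase of the length given in the deposited table. SNHG29 was the highest, at 75.86 to 82.78 CPM per kilobase in controls. GAS5 (42.92 to 56.27) and SNHG19 (38.06 to 56.53) came next and overlapped. SNHG6 followed at 36.64 to 41.16 and overlapped SNHG19, then SNHG15 at 27.69 to 33.81 and SNHG7 at 22.69 to 28.37, which overlapped each other. SNHG3 (mean 22.8) and SNHG1 (21.3) stood together in the controls, and after knockdown SNHG3 (7.75) was at a level below that of SNHG1 (12.3). This order depends on the gene model, since the deposited length equals the exon bases of GENCODE 29 for only 6 of the 29 hosts. SNHG8 has 6614 bases in the table and 923 in GENCODE 29, which puts its control level at 7.50 or 53.7 CPM per kilobase.

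Knockdown 1 stood apart from the other knockdown libraries for some hosts. Set against the mean of knockdowns 2 and 3 on the scale of log2 CPM with 0.1 added, SNHG6 was lower by a difference of -0.88, GAS5 of -0.62 and SNHG8 of -0.60 in knockdown 1. SNHG3 (-0.13), SNHG1 (0.06) and SNHG12 (0.17) were close to the other knockdowns there. Among the 24 hosts 10 were lowest in knockdown 1 of the 3 knockdowns, and among all tested genes 31.67% were. The median difference was -0.06 for the 24 hosts, -0.26 for the protein-coding hosts and 0.03 over all tested genes. Knockdown 1 also had the fewest reads and the highest sum over a list of 7 RNAs mostly without poly(A) tails, 939.9 CPM. The other knockdowns had 501.7 and 101.5 CPM and the controls 70.82, 182.1 and 41.60 CPM. Of the tested members, RMRP and RNA5-8SN3 were highest in knockdown 1, and RN7SL1 was higher in knockdown 2 (446.8 CPM) than in knockdown 1 (367.7 CPM). The snoRNA and scaRNA rows were not highest in knockdown 1, with sums of 46.80, 52.68 and 47.49 CPM in knockdowns 1 to 3 and 60.12, 68.17 and 42.98 CPM in controls 1 to 3. The part of these RNAs in the host gene values was not tested, and without knockdown 1 SNHG3, SNHG1 and SNHG12 were still called.

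**Figure D3:**
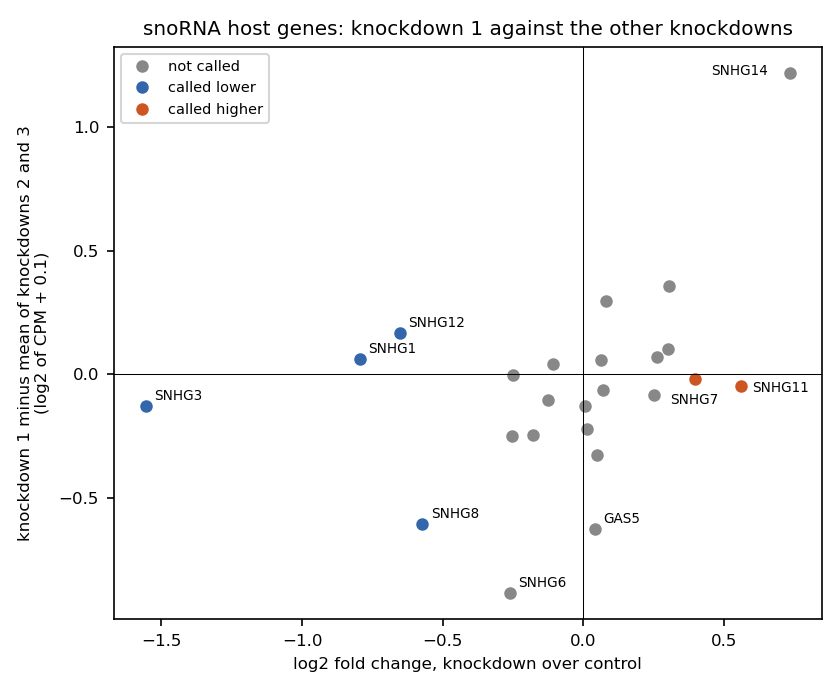
Log2 fold change, knockdown over control (x axis), against the difference of knockdown 1 from the mean of knockdowns 2 and 3 in log2 of CPM with 0.1 added (y axis), for the 24 tested hosts. SNHG6, GAS5 and SNHG8 lie lowest on the y axis, at -0.88, -0.62 and -0.60, and SNHG3, SNHG1 and SNHG12 lie near 0 on it.

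The snoRNAs inside the hosts were mostly not seen. Only snoRNA or scaRNA genes of GENCODE 29 that also have a row in the deposited table were counted, so the hosts may hold others. By this count GAS5 and SNHG27 held 0. The other 27 of the 29 hosts held 139 on the same strand, 84 of them inside SNHG14. Of the other 55, 36 overlap an exon of at least 1 annotated transcript of the host. Of these 36, 0 had a read in any library. Such an exon can be an intron in other transcripts of that host. Of the 19 that overlap no exon, 7 had a read. How reads that overlap exons of more than 1 gene were counted is not given in the sources used here, so the 0 counts under host exons do not show that these snoRNAs were absent. Poly(A) selection leaves out mature snoRNAs, which have no poly(A) tail, and a read in such a row may also come from an unspliced host transcript, which cannot be told apart.

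SNHG3 carries a pair of near-identical snoRNAs, and their sequences are shown because the count of one could depend on the other. They come from GENCODE 29 on GRCh38, SNORA73A at chr1:28507366-28507571 and SNORA73B at chr1:28508559-28508762, both on the plus strand. Capitals mark the bases that do not match in the alignment.
SNORA73A: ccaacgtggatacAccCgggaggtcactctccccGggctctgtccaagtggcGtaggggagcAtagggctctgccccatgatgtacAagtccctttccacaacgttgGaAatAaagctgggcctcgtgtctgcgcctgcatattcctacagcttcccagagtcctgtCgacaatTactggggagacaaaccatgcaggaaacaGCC
SNORA73B: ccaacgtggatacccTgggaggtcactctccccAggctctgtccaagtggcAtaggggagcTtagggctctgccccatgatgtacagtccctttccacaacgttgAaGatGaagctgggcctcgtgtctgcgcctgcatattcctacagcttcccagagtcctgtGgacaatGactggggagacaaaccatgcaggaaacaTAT

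Of the 204 bases of SNORA73B, 192 match SNORA73A in the alignment (94.12%). SNORA73A overlaps an exon of at least 1 annotated transcript of SNHG3 and had 0 reads. SNORA73B overlaps no annotated exon of SNHG3 and had 119, 102 and 69 reads across the controls, against 19, 21 and 51 across the knockdowns. SNORA73B was lower in every knockdown, with knockdown 3 nearest to the controls. The fitted log2 fold change of SNORA73B was -1.62 (SE 0.39, adjusted p = 0.00993), and without control 1 it was -1.45 (adjusted p = 0.0507). The counting of reads that overlap a host exon, and of reads that map to both copies, is not known, so neither the 0 of SNORA73A nor the value of SNORA73B is certain.

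No other snoRNA inside a host was called. SNORD99, inside SNHG12, had 27, 21 and 21 reads in controls and 23, 22 and 18 after knockdown (log2 fold change 0.00, adjusted p = 0.998). SNORD104, inside SNHG25, had 156, 157 and 78 reads against 77, 70 and 61 (-0.79, adjusted p = 0.151). SNORA71B, inside SNHG17, had 14, 40 and 11 reads against 13, 17 and 16 (-0.41, adjusted p = 0.738). SNORA74D, inside SNHG4, had 0, 2 and 0 reads in controls and 3, 6 and 17 after knockdown and was not tested. The hosts SNHG4 and SNHG25 were not called, each with a log2 fold change of 0.01.

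Neighbouring genes that share a start or exons with a host were looked at for the hosts that fell. RCC1, SLC3A2 and TRNAU1AP were chosen after their values were seen. RCC1, the nucleotide exchange factor of the GTPase Ran, is read from the same strand as SNHG3, starts 37 bases away in GENCODE 29 and shares 5.92% of the exon bases of SNHG3. It had 199.7, 190.8 and 179.7 CPM in controls and 170.1, 163.7 and 166.2 CPM after knockdown. RCC1 was not called, at -0.19 in log2 (SE 0.10, adjusted p = 0.239). Its 95% interval, -0.40 to 0.02, lies apart from that of SNHG3.

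SLC3A2, the heavy chain of amino acid transporters, starts 188 bases from SNHG1 on the opposite strand, and the genes share no exon. It had 2955, 2956 and 2743 CPM in controls and 1045, 971.9 and 973.1 CPM after knockdown, a gap many times the spread within either group. The log2 fold change of SLC3A2 was -1.53 (SE 0.10, adjusted p = 4.27e-08). Both genes of this divergent pair therefore fell, SNHG1 by 0.79 and SLC3A2 by 1.53 on the log2 scale. TRNAU1AP, a factor of selenoprotein synthesis on the strand opposite to SNHG12, covers 0.188% of the exonic sequence of SNHG12 and was at -0.49 in log2 (SE 0.13, adjusted p = 0.0215). The call of TRNAU1AP was lost without control 1 (adjusted p = 0.0538) or control 2 (0.0629). The part of these neighbours in the values of the hosts was not tested.

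**Figure D4:**
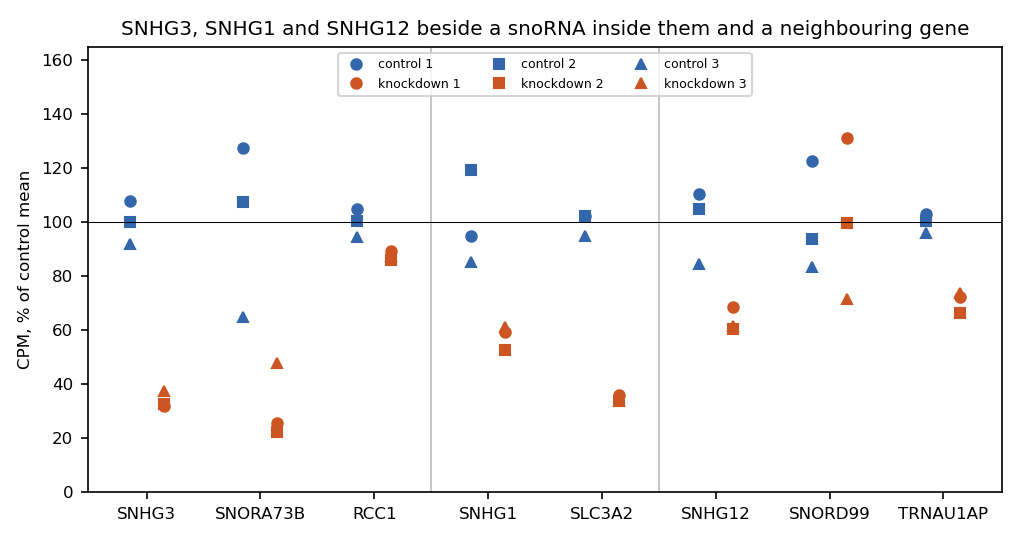
CPM as a percentage of the control mean (y axis) in each library for SNHG3, SNHG1 and SNHG12, for a snoRNA inside SNHG3 and SNHG12, and for a neighbouring gene of each. SNHG3 and SNORA73B were low in the knockdowns while RCC1 stayed closer to its controls, and SLC3A2 was low beside SNHG1.

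Exons shared with a gene on the opposite strand touched some hosts that were not called: 29.3% of the exon bases of SNHG6, 30.6% of SNHG16, 20.1% of SNHG10 and 12.0% of SNHG29. The library protocol marks the strand, but the strand setting of the counting is not given in the sources used here, so these values are uncertain. SNHG3, SNHG1, SNHG8 and SNHG11 share no exon base with an opposite-strand gene. Sharing with a gene on the same strand was largest, among tested hosts, for SNHG21 (72.9% of its exon bases), SNHG32 (23.2%) and SNHG4 (14.0%). The values of these hosts are uncertain too.

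Other snoRNA hosts were set beside the SNHGs from lists of genes. Of 3 further noncoding hosts, DANCR fell by 0.68 on the log2 scale (edgeR adjusted p = 0.00330), with 37.12 ± 1.94 CPM in controls against 23.11 ± 2.32 CPM in knockdowns (SD, n = 3 each). ZFAS1 (-0.44, adjusted p = 0.0981) and EPB41L4A-AS1 (0.00) were not called. Among 53 protein-coding hosts 5 fell and 0 rose, with a median of -0.12. That is 9.43% called, all lower, where 6.66% of all tested genes were called lower and 6.27% higher. The ribosomal protein gene RPL10 (-0.72, adjusted p = 2.03e-04), NOP56, a core protein of C/D box snoRNPs (-0.63, adjusted p = 8.47e-04), and HSPA8, the constitutive HSC70 chaperone (-0.57, adjusted p = 0.0138), were the clearest, and NAP1L4 and SF3B3 the others. RPL10 and HSPA8 have near-identical pseudogene copies, so their counts are uncertain. With 0 rises by edgeR, 0 of the 53 were higher at an unadjusted p under 0.05 and 0 by DESeq2 or limma-voom. HSPA8 was not called without control 2 (adjusted p = 0.0754), control 3 (0.0539) or knockdown 1 (0.0683), and 3 of the 53 were lower without control 2 or without control 3.

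Of 18 core and assembly factors of snoRNPs, the particles in which snoRNAs act, 1 fell (NOP56, also in the list of hosts) and 0 rose, and the median was -0.10. The share called was 5.56%, against 12.92% of all tested genes. At an unadjusted p under 0.05, 1 was higher and 2 were lower. DESeq2 called 0 higher and 2 lower, and limma-voom 0 higher and 1 lower. Of 19 factors of NMD and of the exon junction complex, which marks spliced transcripts for it, 0 were called by edgeR, DESeq2 or limma-voom, and 1 was higher and 1 lower at an unadjusted p under 0.05. UPF1, the central NMD helicase, had 321.1 ± 21.6 CPM in controls against 301.4 ± 50.5 CPM in knockdowns (SD, n = 3 each), a log2 fold change of -0.09. Of 12 coding mRNAs known to be sensitive to NMD, SRSF2, a splicing factor that limits its own mRNA through NMD, fell (-0.47, adjusted p = 0.00405), 0 rose by edgeR, by DESeq2, by limma-voom or at an unadjusted p under 0.05, and the median was -0.16. ATF4 (-0.07) and GADD45A (-0.01) were not called. The share called among these 12 was 8.33%.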

How the data were processed

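Poly(A) RNA was captured on oligo-dT beads and sequenced as strand-marked libraries, per the labels' protocols. The authors deposited raw read counts per gene, in whole reads, and a gene length. The submitters' processing notes name HISAT2 2.1.0, featureCounts 2.0.0, cutadapt 2.8, SAMtools 1.10 and build hg38, unordered. Not given in the sources used here were the settings, the annotation release, the strand setting and the treatment of multimapping reads. Hyphens, written as dots in the table, were restored in 5521 symbols by Ensembl identifier.

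All genes were fitted together. Genes were kept with filterByExpr (minimum count 10, minimum total 15) and tested in R 4.3.3 by edgeR 4.0.16, using TMM factors, robust glmQLFit and glmQLFTest without covariate, with Benjamini-Hochberg adjustment over 14649 genes and calls at an adjusted p under 0.05. Alternatives were RLE scaling, no scaling, no filter, a minimum of 5 CPM in 3 libraries, a replicate block, each library left out, DESeq2 1.42.0 and limma-voom 3.58.1. The fit was tested on simulated data. Replicates of a group differed by 14.58 to 36.21 in chi-square per degree of freedom, so none was taken as a copy. Floors and intervals cover counting error or spread between libraries only.

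The members and lists were chosen with earlier results of these data known, so counts are read beside those of all genes. Named genes were all called members, the 8 most abundant uncalled members, snoRNAs inside a member with at least 10 reads in 1 library, and up to 3 called genes per direction from each list. Coordinates and overlaps come from GENCODE 29, with the exons of all transcripts of a gene merged, and promoters from RefSeq.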

Additional observations from a re-analysis of the deposited data

How the results depend on the processing

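SNHG3, SNHG1 and SNHG12 kept their calls and directions under all 13 alternatives. With each library left out in turn, 3 to 4 hosts were called lower and 0 to 2 higher, and 3 to 6 protein-coding hosts lower. Over all tested genes, 702 to 1141 were then lower and 529 to 828 higher, and the log2 fold change of IGF2BP1 was -3.35 to -2.86. The replicate numbers were not treated as pairs in the main test. Same-numbered deviations correlated at 0.15, 0.07 and -0.06. Controls 1 and 2 correlated best with their own number and control 3 with knockdown 2 (0.14). With 3 libraries per group these values cannot show whether the numbers mark pairs. With the replicate block, 2431 genes were called against 1893 (1874 in both), 9 protein-coding hosts were lower against 5, and the same 6 members were called. Scaling by no factor moved the median of all genes from 0.03 to 0.12.

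Hosts near 0 changed sign, and the cause was not tested. With each library left out in turn, the log2 fold change ranged from -0.0758 to 0.218 for GAS5 (below 0 without control 1, knockdown 2 or knockdown 3), -0.0246 to 0.123 for SNHG16 (control 2, knockdown 2), -0.0801 to 0.208 for SNHG19 (control 1, control 3, knockdown 2) and -0.0839 to 0.244 for SNHG30 (control 1). For SNORA71B it ranged from -0.760 to 0.398 (above 0 without control 2). SNORD99 was at -0.0157 with RLE scaling, -0.0136 with no filter, -0.00896 with the replicate block, -0.0155 with DESeq2 and -0.0451 with limma-voom, and from -0.225 to 0.199 with each library left out. SNORD104 was called without control 3 (-1.11, adjusted p = 0.0404). PDGFRB was called in 4 of its 12 alternatives. Low counts left SNHG18, SNHG22, SNHG27, SNHG28 and SNHG31 untested and the intervals of SNHG14 and SNHG21 wide.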

Other observations

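Of 2160 tested rows that the deposited table types as lncRNA, a class that includes the 29 hosts, 163 were higher and 46 lower, a share of 9.68% called against 12.92% of all tested genes, with a median log2 fold change of 0.25 against 0.03 over all tested genes. In a list of 11 well known long noncoding RNAs that host no snoRNA, 10 were tested, 2 were higher and 1 was lower. CYTOR rose by 1.03 on the log2 scale (edgeR adjusted p = 1.66e-04), with 47.75 ± 3.56 CPM in controls against 97.69 ± 20.8 CPM in knockdowns (SD, n = 3 each), and PVT1 by 0.52 (adjusted p = 0.00358). H19, an imprinted fetal transcript known to be bound by the IGF2BP proteins, fell by 0.81 on the log2 scale, with 2228 ± 117 CPM in controls against 1270 ± 147 CPM in knockdowns (SD, n = 3 each, adjusted p = 8.96e-05). These 3 calls held in all 13 alternatives.

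Of 553 snoRNA and scaRNA rows 23 were tested, with 1 lower (SNORA73B) and 1 higher. The one that rose was SNORD3A, a U3 snoRNA with a promoter of its own, named here after its value was seen. It had 56, 65 and 41 reads across the controls, against 91, 136 and 137 across the knockdowns (log2 fold change 1.25, SE 0.30, adjusted p = 0.0101), and without control 3 the change was 1.03 (adjusted p = 0.0550). The list of 7 RNAs mostly without poly(A) tails, described with knockdown 1, also had higher sums in knockdowns 1 and 2 than in any control. The part of these RNAs in the value of SNORD3A was not tested.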
